A study of Homo sapiens with 4 samples.

Results

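HMGA2 and 8 further genes that are known as targets or partners of the let-7 microRNAs were examined in SW480 and SW620 cells with and without knockdown of SHMT2. The 9 genes were HMGA2, its paralog HMGA1, LIN28B, IGF2BP1, IGF2BP2, IGF2BP3, ARID3B, DICER1 and TRIM71. They were taken by symbol from the table of read counts, which held 26364 rows, and each of the 9 matched a row. A gene was tested when it had at least 10 counts in at least 2 libraries, which left 14024 genes and 8 of the 9 members. LIN28B did not pass this filter, and TRIM71 passed it only through SW620.

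Both lines are of human colorectal cancer and are widely used as a pair, since SW480 came from a primary tumor and SW620 from a lymph node metastasis of the same patient. RNA was sequenced from SHMT2 knockdown cells and control cells of each line, with 1 library for each of the 4 combinations. SHMT2 is the mitochondrial serine hydroxymethyltransferase. In the knockdown system of the study an shRNA against SHMT2 is switched on by doxycycline, and the controls are described as control shRNA cells. Which hairpin was sequenced and whether the control cells also received doxycycline are not given in the sources used here. Nothing states that the libraries came from more than 1 stock of cells per line, and no combination was repeated. The p-values therefore rest on how far the knockdown change differs between the lines, with this spread shared across genes. They measure no spread between replicates. With 1 library per line and condition, every interval given for a single line covers counting error only.

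The let-7 microRNAs are abundant in differentiated tissue and scarce in early embryos. They lower the level of mRNAs that carry a match to the seed, a short stretch near the 5′ end of the microRNA. LIN28B and its relative LIN28A block the maturation of let-7, and Dicer, the product of DICER1, cuts the mature microRNA from its hairpin. Oncofetal genes are those used in the embryo, silent in most adult tissue and switched on again in tumors. HMGA2 and HMGA1 encode small chromatin proteins that bend AT-rich DNA, and the IGF2BP genes encode proteins that bind and stabilize mRNAs such as MYC.

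The mature let-7 sequences are shown because they define which letters were searched in the genes. RefSeq (GRCh38.p14) lists 12 human loci that give 9 mature sequences of this family, and all 9 have the same seed at bases 2 to 8, which is in capitals. The 4 printed here are processed from hairpins that lie within genes measured in these libraries.
hsa-let-7a-5p: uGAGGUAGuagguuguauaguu
hsa-let-7f-5p: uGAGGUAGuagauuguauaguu
hsa-let-7g-5p: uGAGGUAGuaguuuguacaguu
hsa-miR-98-5p: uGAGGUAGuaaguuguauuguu
One locus of let-7a lies in MIR100HG on chromosome 11, one locus of let-7f and the locus of miR-98 lie in HUWE1 on chromosome X, and the locus of let-7g lies in WDR82 on chromosome 3.

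The transcripts of the 9 genes in GENCODE 29 (GRCh38) were searched for CTACCTC, which pairs with the seed, and for CTACCTCA, in which this match is followed by an A. The former is called the 7-base site and the latter the 8-base site, and each 8-base site contains a 7-base site. Only the strand of the transcript was searched. For each gene the annotated 3′ UTR with the most sites was used. The form TACCTCA, which lacks the first letter of the 8-base site, was counted apart and is not among the sites named below. Outside 8-base sites it occurred 4 times in ARID3B, 3 in HMGA2, and 2 each in DICER1 and TRIM71. LIN28B, IGF2BP1 and IGF2BP2 had 1 each, and HMGA1 and IGF2BP3 had 0. A match is a description of the sequence and was not tested as a binding site.

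HMGA2 carried 1 8-base site and 3 further 7-base sites in the 3003-base 3′ UTR of transcript ENST00000403681.6, the first of them starting 21 bases after the stop codon. They are printed with the 14 bases before them, with the site in capitals.
HMGA2 8-base site, chr12:65963299-65963320, plus strand: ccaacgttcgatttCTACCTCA
HMGA2 7-base site, chr12:65964534-65964554, plus strand: cccactactcaataCTACCTC
HMGA2 7-base site, chr12:65964946-65964966, plus strand: tgacttgcaaagacCTACCTC
HMGA2 7-base site, chr12:65965799-65965819, plus strand: atcaaaacacactaCTACCTC
Of the 7 annotated 3′ UTRs of HMGA2, 1 held these sites, and the longest one, with 7421 bases, held 0. The counts are per gene symbol and do not tell these transcripts apart.

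IGF2BP1 and TRIM71 carried the most 8-base sites of the tested members. The 3′ UTR of IGF2BP1, which has 6206 bases, held 3 8-base sites and 1 further 7-base site. That of TRIM71, with 6015 bases, held 4 and 2. The 8-base sites of IGF2BP1 and the first 8-base site of IGF2BP2, IGF2BP3, TRIM71 and LIN28B are given below. Only the site itself is shared by all of them. Some have the same bases directly before it, such as AA in the IGF2BP1 and IGF2BP3 sites.
IGF2BP1 site 1, chr17:49051062-49051083, plus strand: gtgtgcgaagtaaaCTACCTCA
IGF2BP1 site 2, chr17:49053699-49053720, plus strand: agcagtgctagtaaCTACCTCA
IGF2BP1 site 3, chr17:49054353-49054374, plus strand: tataaatggattaaCTACCTCA
IGF2BP2 site 1, chr3:185644220-185644241, minus strand: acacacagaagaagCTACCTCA
IGF2BP3 site 1, chr7:23311795-23311816, minus strand: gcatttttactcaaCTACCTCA
TRIM71 site 1, chr3:32891969-32891990, plus strand: acattgcttaagtcCTACCTCA
LIN28B site 1, chr6:105078813-105078834, plus strand: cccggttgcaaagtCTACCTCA
IGF2BP2 and IGF2BP3 held 1 8-base site each, and LIN28B held 2 with 2 further 7-base sites. HMGA1 and ARID3B held 1 7-base site each in the 3′ UTR and 0 8-base sites.

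DICER1 differed in where its sites lie. Its 3′ UTR of 4270 bases held 0 7-base or 8-base sites and 2 matches to TACCTCA. Its coding sequence of 5769 bases held 3 8-base sites, on chromosome 14.
DICER1 coding site 1, chr14:95103748-95103769, minus strand: acccgtgcaaccaaCTACCTCA
DICER1 coding site 2, chr14:95103640-95103661, minus strand: aaatgctaacaaatCTACCTCA
DICER1 coding site 3, chr14:95094106-95094127, minus strand: gatgcgattttggaCTACCTCA
ARID3B had 1 8-base site in its coding sequence, and the other members had 0 there.

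**Figure D1:**
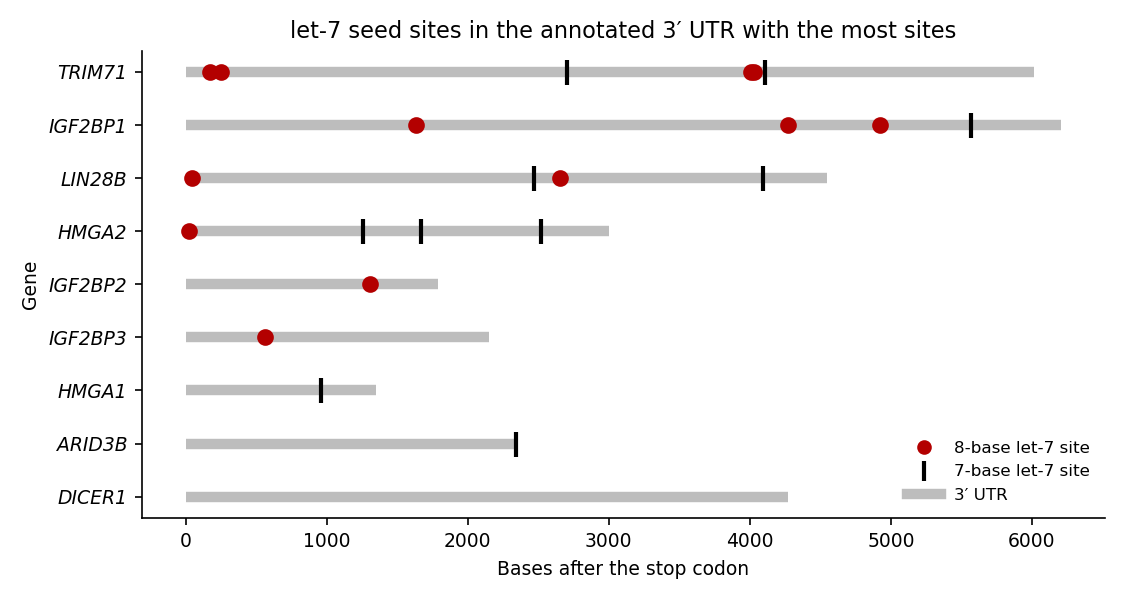
Position of the let-7 seed sites in the annotated 3′ UTR with the most sites, for each of the 9 genes. The horizontal axis gives bases after the stop codon, the grey bar is the 3′ UTR, red points are 8-base sites and black ticks are further 7-base sites. TRIM71 has 4 red points, IGF2BP1 has 3, and the bar of DICER1 is empty. Matches to TACCTCA alone are not drawn.

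The libraries held 5530129 to 13774288 counts. Levels are given as CPM, the counts scaled to a common depth with totals adjusted by TMM, and 3 counts, used as the limit that a count of 0 allows, correspond to 0.223 to 0.55 CPM. SHMT2 fell in the knockdown libraries, from 277 to 30.9 CPM in SW480 and from 688 to 47.6 CPM in SW620 (log2 change -3.54, edgeR quasi-likelihood test, adjusted p = 1.06e-167). Of 8 markers of colorectal epithelium 6 were tested, among them EPCAM, KRT8, KRT18 and CDH1, while CDX1 was at 0 and KRT20 at 15 counts or fewer in each library. VIL1, which encodes the microvillus protein villin, was at 0.151 and 0.208 CPM in SW480 and at 372 and 380 CPM in SW620. The markers of leukocytes (PTPRC), endothelium (PECAM1) and red cells (HBB) had at most 2 counts in a library. COL1A1, a collagen gene fixed as the marker of fibroblasts, had 203 and 130 counts in SW480 and 35 and 86 in SW620, with a log2 difference of -1.66 between the lines (SE 0.236, edgeR adjusted p = 1.02e-11).

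The 9 genes covered a wide range of levels. Divided by the length of the longest annotated transcript, HMGA1 lay between 707 and 1151 CPM per kilobase over the 4 libraries and did not overlap with any other member. IGF2BP2 (24.4 to 69.5), IGF2BP3 (17.6 to 45.7), HMGA2 (4.37 to 60.3) and IGF2BP1 (0.189 to 32.3) overlapped with one another on this scale. The range of DICER1 (8.75 to 15.4 CPM per kilobase) lay above that of ARID3B (2.37 to 7.40). TRIM71 reached at most 0.422 CPM per kilobase.

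In SW480 control cells the order per length was HMGA1, IGF2BP2, IGF2BP3, HMGA2, DICER1, ARID3B and IGF2BP1. In SW620 control cells IGF2BP1 stood in the second place, and HMGA2 was below ARID3B. The order in both control libraries was the same with the length of all annotated exons, whereas in the SW480 knockdown library 2 genes and in the SW620 knockdown library 4 genes changed place. LIN28B was at or near 0. SW480 control and knockdown cells had 2 counts each, and both SW620 libraries had 0, so it was not detectable at this depth in SW620. Its relative LIN28A had 1 to 3 counts.

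**Figure D2:**
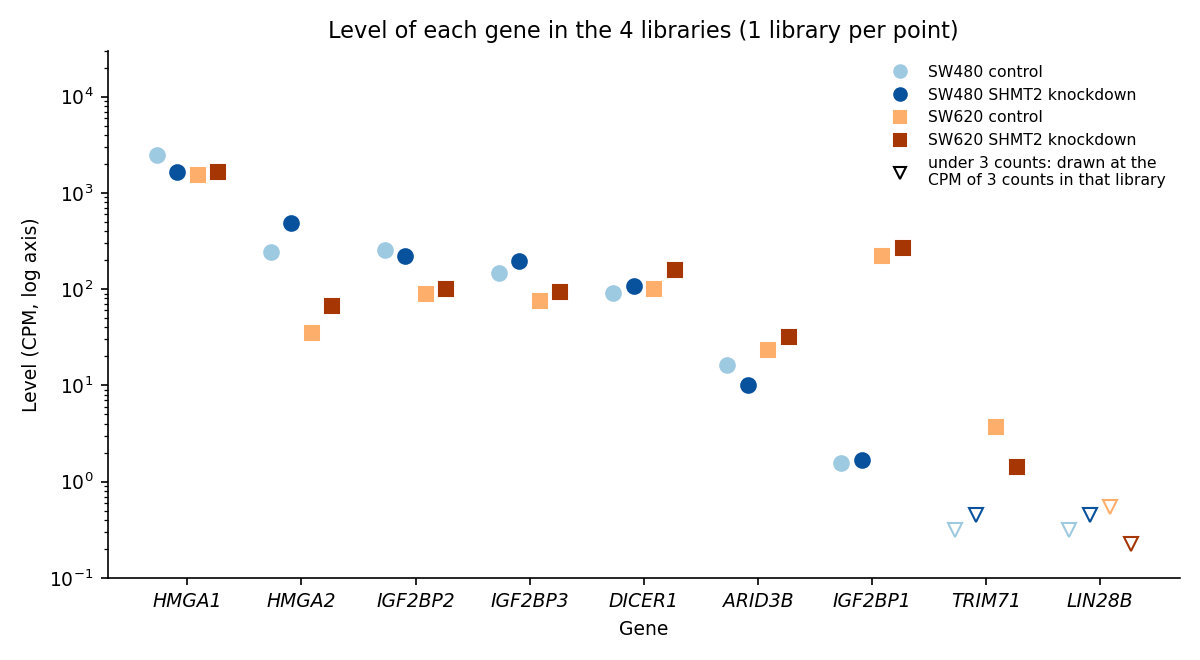
Level of each gene in CPM on a log axis, with 1 point per library. Light and dark symbols are control and SHMT2 knockdown, circles are SW480 and squares SW620, and open triangles mark fewer than 3 counts and are drawn at the CPM of 3 counts. HMGA2 is higher in both circles than in both squares, IGF2BP1 is at 1.56 and 1.66 CPM in SW480 and at 219 and 267 CPM in SW620, and LIN28B is under the limit in all 4 libraries.

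The first comparison asked how these genes respond when SHMT2 is lowered. HMGA2 rose to about 1.96-fold its control level and DICER1 rose by a smaller amount, and 0 members passed as lower. The change in the model was below 0 for HMGA1, IGF2BP2, ARID3B and TRIM71, which did not pass. Thus 2 of the 8 tested members passed as higher in knockdown cells, in a model with terms for line and treatment (edgeR quasi-likelihood test, adjusted p under 0.05). Among all tested genes, 69 (0.492%) were higher, 164 (1.17%) were lower and 233 (1.66%) passed in either direction. At an unadjusted p under 0.05 the members were 3 higher and 1 lower (edgeR), and the DESeq2 Wald test called 1 higher and 0 lower. Over all 14024 tested genes these counts were 582 higher and 688 lower (edgeR), and 5 higher and 21 lower (DESeq2). The median change over all tested genes was 0.01 on the log2 scale.

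HMGA2 lies on chromosome 12 (65824131 to 65966295, plus strand). SW480 control cells had 2329 counts (242 CPM) and SW480 knockdown cells 3237 (488 CPM). The SW620 control had 193 counts (35.4 CPM), against 900 (66.9 CPM) after knockdown. Both knockdown libraries were higher than the control of the same line, but each SW620 library was lower than each SW480 library, so the treatment groups overlapped when lines were pooled. The log2 change was 1.01 in SW480 (95% counting interval 0.93 to 1.09) and 0.91 in SW620 (0.69 to 1.14). The difference between these changes, SW620 minus SW480, was -0.09 (95% counting interval -0.33 to 0.14). In the model of both lines the log2 change was 0.97 (SE 0.119, edgeR quasi-likelihood test, Benjamini-Hochberg adjusted p = 7.41e-13). By the size of its p-value HMGA2 was in place 9 of the 14024 tested genes, and by the size of its rise in place 68. The call needs the cell line in the model: without it the log2 change was 1.00 and the adjusted p of the edgeR test was 1.00.

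RPSAP52, an antisense pseudogene transcript within the HMGA2 locus that shares 0 exon bases with it, had 21 and 13 counts in SW480 control and knockdown cells and 0 and 1 in SW620. Its log2 change with the knockdown was -0.08 (SE 0.718, edgeR adjusted p = 0.997). Another annotated antisense gene, AC090673.1, shares 384 exon bases with HMGA2, and the use of strand in counting is not given in the sources used here.

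DICER1 (chromosome 14, 95086228 to 95158010, minus strand) had 90.4 CPM in control and 109 CPM in knockdown SW480 cells. The values were 101 and 159 CPM in SW620 cells. Both knockdown libraries stood above both control libraries. The log2 change was 0.27 in SW480 (95% counting interval 0.13 to 0.41) and 0.65 in SW620 (0.52 to 0.78), and 0.46 in the model (SE 0.123, edgeR adjusted p = 0.0149). This call was less stable than that of HMGA2. The edgeR adjusted p was 0.0743 without the filter on low counts, 0.141 with a filter of 50 counts, 0.0853 with all libraries thinned to the smallest total and 1.00 without the cell line, and the DESeq2 adjusted p was 0.717. DICER1-AS1, which shares 80 exon bases with DICER1 on the opposite strand, had 10 to 25 counts per library.

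The 3 IGF2BP genes did not pass the test. IGF2BP3 came closest, with 148 and 194 CPM in control and knockdown SW480 cells and 75.0 and 92.7 CPM in SW620 cells. Both lines had the higher value in the knockdown library, and the log2 change was 0.35 (SE 0.121, edgeR unadjusted p = 0.00342, adjusted p = 0.13). IGF2BP3 shares 1521 exon bases with MALSU1 on the opposite strand, whose log2 change was -0.16 (SE 0.14, edgeR adjusted p = 0.88).

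IGF2BP1 had 15 and 11 counts in SW480 and 1194 and 3595 counts in SW620, which correspond to 1.56, 1.66, 219 and 267 CPM. Its log2 change with the knockdown was 0.27 (SE 0.158, edgeR adjusted p = 0.67). IGF2BP2 was at 256 and 220 CPM in SW480 and at 89.8 and 101 CPM in SW620. Within the lines the changes were -0.22 (SW480) and 0.16 (SW620), and the model gave -0.04 (SE 0.118, edgeR adjusted p = 0.986).

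HMGA1, the paralog of HMGA2, was the most abundant member and did not pass the test. It had 2484 CPM in control and 1635 CPM in knockdown SW480 cells, and 1527 and 1668 CPM in SW620 cells. The value of the SW480 control library stood above those of the other 3 libraries. The log2 change was -0.60 in SW480 (95% counting interval -0.64 to -0.57) and 0.13 in SW620 (0.09 to 0.16), and -0.24 in the model (SE 0.0877, edgeR adjusted p = 0.191). With the DESeq2 Wald test the SE of the knockdown change was wider, at 0.357. GENCODE 29 lists 8 pseudogenes of HMGA1, with which reads may be shared, and HMGA1P7 was at 0 counts in each library.

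ARID3B, which encodes a DNA-binding protein of the ARID family, had 16.1 and 10.1 CPM in SW480 and 23.3 and 31.6 CPM in SW620. The knockdown value was the lower one in SW480 and the higher one in SW620, with log2 changes of -0.66 and 0.44. The model gave -0.04 (SE 0.19, edgeR adjusted p = 0.993). TRIM71, a stem cell ubiquitin ligase and RNA-binding protein, had 0 and 1 counts in SW480 and 20 and 19 counts in SW620 in control and knockdown cells. These are 3.67 and 1.41 CPM in SW620, and the log2 change in the model was -1.19 (SE 0.673, edgeR adjusted p = 0.641).

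**Figure D3:**
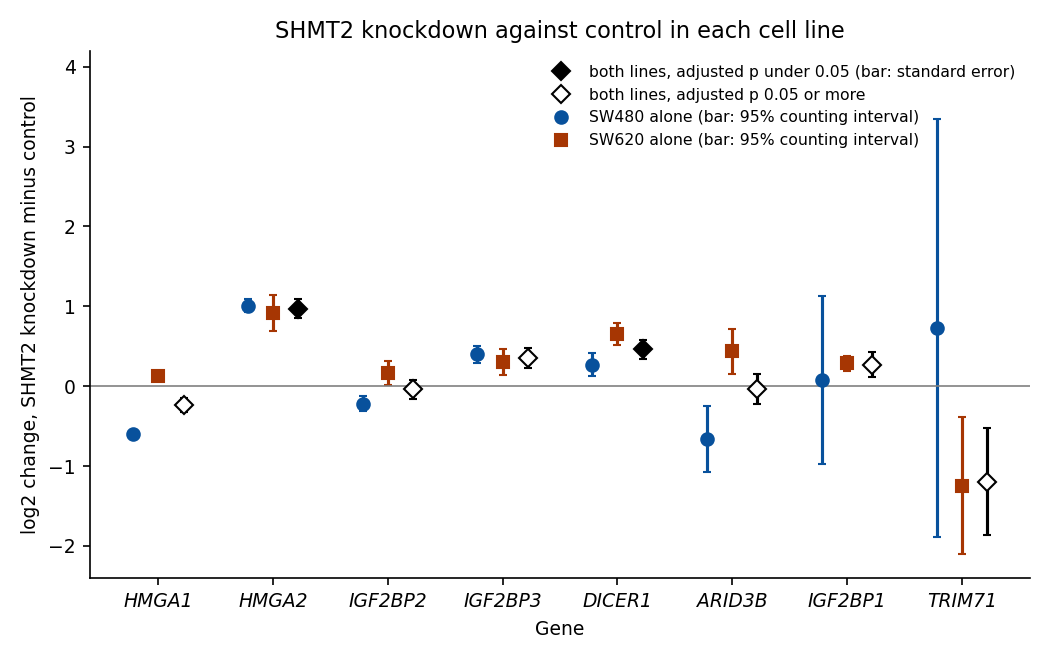
Change with SHMT2 knockdown on the log2 scale for the 8 tested genes. Blue circles and brown squares are SW480 and SW620 alone with 95% counting intervals, and diamonds are the model of both lines with the standard error, filled where the adjusted p was under 0.05. The filled diamonds are HMGA2 (0.97) and DICER1 (0.46), and the points of HMGA1, IGF2BP2, ARID3B and TRIM71 lie on opposite sides of 0 in the lines.

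The second comparison asked how SW620 differed from SW480. All 8 tested members passed the test in the same model, 4 higher and 4 lower in SW620, on a background in which most genes differed. Of all tested genes, 4532 (32.3%) were higher in SW620, 4394 (31.3%) were lower and 63.6% passed in either direction. IGF2BP1, TRIM71, ARID3B and DICER1 were higher in SW620, and HMGA2, IGF2BP2, IGF2BP3 and HMGA1 were lower. TRIM71 entered the test only because of its counts in SW620, where it is high, so its place among these calls is a description. Each line is 1 stock of cells in bulk RNA, in which fewer cells of a type and less RNA per cell cannot be told apart.

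IGF2BP1 (chromosome 17, 48997412 to 49055650, plus strand) had the widest difference. The SW620 level was 140 times that of SW480 in control cells (exact 95% counting interval 84.6 to 251) and 161 times in knockdown cells (89.9 to 323). The log2 difference in the model was 7.21 (SE 0.196, edgeR adjusted p = 9.22e-280). Its relatives went the other way. The ratio of SW620 to SW480 was 0.35 in control and 0.459 in knockdown cells for IGF2BP2, with a log2 difference of -1.31 (SE 0.119, edgeR adjusted p = 3.74e-27). For IGF2BP3 these values were 0.508, 0.477 and -1.02 (SE 0.122, edgeR adjusted p = 2.51e-16). SW480 thus had IGF2BP2 and IGF2BP3 with little IGF2BP1, and SW620 had all 3.

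HMGA2 was lower in SW620 in both conditions. The ratio of SW620 to SW480 was 0.146 in control cells (exact 95% counting interval 0.125 to 0.169) and 0.137 in knockdown cells (0.127 to 0.148). In other words, SW480 had 6.85 and 7.30 times the level of SW620, and the log2 difference was -2.83 (SE 0.124, edgeR adjusted p = 1.01e-110). The difference between the lines was wider than the change with SHMT2 knockdown, and the SW620 knockdown level of 66.9 CPM was below the SW480 control level of 242 CPM. HMGA1 had a log2 difference of -0.34 (SE 0.0877, edgeR adjusted p = 2.95e-04), but this rested on the control libraries. The ratio of SW620 to SW480 was 0.615 in control cells and 1.02 in knockdown cells, where the 95% counting interval (0.997 to 1.04) included 1.

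For TRIM71 the ratio of SW620 to SW480 among control libraries was 11.7 when 3 counts were taken for the 0 in SW480. The exact 95% lower limit of the ratio with the 0 kept, which also covers the counting error of the 20 counts in SW620, was 8.69. Among knockdown libraries the ratio was 9.36 (exact 95% counting interval 1.49 to 389). TRIM71 passed the filter only through SW620, where it is high, so its log2 difference of 5.12 in the model is a description. ARID3B was 1.44 times as high in SW620 control cells and 3.13 times as high in SW620 knockdown cells, with a log2 difference of 1.07 (SE 0.192, edgeR adjusted p = 9.05e-08). For DICER1 the ratios were 1.12 and 1.46 and the log2 difference was 0.36 (SE 0.122, edgeR adjusted p = 0.00575). With the DESeq2 Wald test HMGA1, ARID3B and DICER1 did not pass (adjusted p = 0.458, 0.055 and 0.175).

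The summed level of the 8 epithelial markers was 5736 and 4258 CPM in control and knockdown SW480 cells and 9824 and 8764 CPM in SW620 cells. Most of this sum came from KRT8 and KRT18, and the log2 changes of EPCAM, VIL1, CDX2 and CDH1 with the knockdown were 0.01, 0.02, 0.29 and 0.45. CDX1 was at 0 in all 4 libraries. The summed level of the 4 markers of other cells was 21.2 and 19.6 CPM in SW480 and 6.78 and 6.69 CPM in SW620, nearly all of it COL1A1. The part of these markers in the differences of the 8 genes was not tested.

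**Figure D4:**
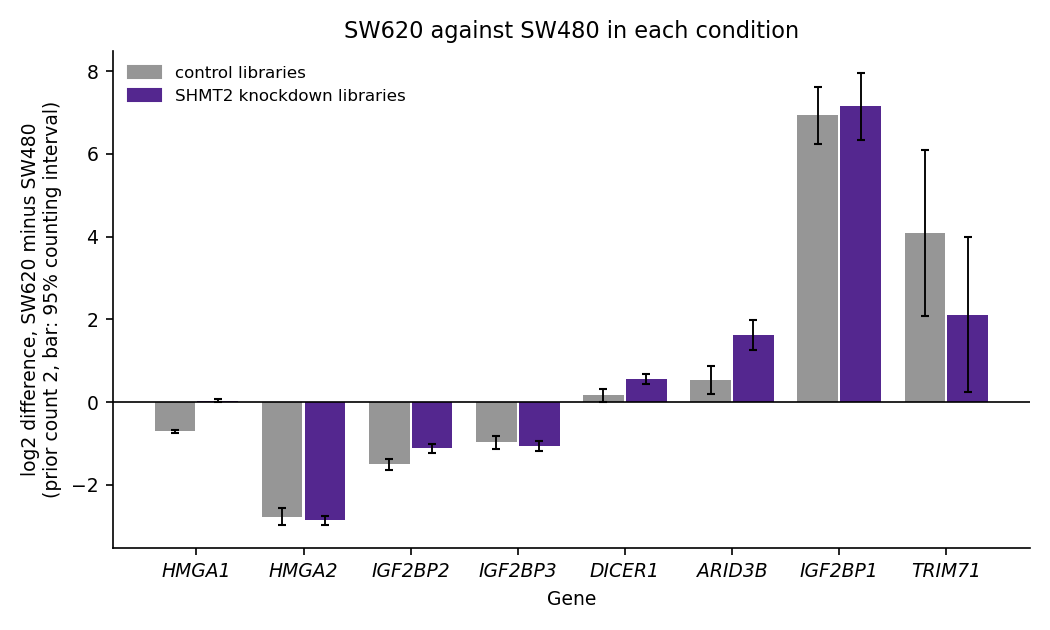
Difference between SW620 and SW480 on the log2 scale in control libraries (grey) and in SHMT2 knockdown libraries (purple) for the 8 tested genes, computed with a prior count of 2. Error bars are 95% counting intervals. IGF2BP1 is at 6.94 and 7.15 and HMGA2 at -2.77 and -2.86, while HMGA1 is at -0.70 in control and 0.03 in knockdown libraries.

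Genes with a pattern like that of HMGA2 were sought by the root mean square distance between mean-centered log2 CPM values over the 4 libraries. The nearest were PADI2 (0.0321), ANKRD18DP (0.0772) and CTF1 (0.113), each with at most 21 counts in a library and 0 in SW620 control cells. Among genes with at least 50 counts in 2 libraries, a limit added after the values were seen, the nearest was ADAM19 (0.12), which encodes a membrane metalloprotease. It had 2361 and 2694 counts in SW480 and 197 and 883 counts in SW620, close to those of HMGA2 in each library. The log2 change of ADAM19 with the knockdown was 0.78, and its log2 difference between SW620 and SW480 was -2.69. Since ADAM19 was chosen for its likeness to HMGA2 in these same libraries, both values follow from the choice and are descriptions. KCNQ1 and FAM167A followed at distances of 0.128 and 0.176.

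Apart from DICER1, 18 genes for microRNA processing and silencing were listed. Of these 17 were tested, and for the knockdown 0 were higher and 0 lower, with a median log2 change of -0.07 (range -0.29 to 0.21) beside 0.01 over all tested genes. These counts were also 0 at an unadjusted p under 0.05 (edgeR) and by the DESeq2 Wald test. Over all 14024 tested genes 1.66% passed for the knockdown, and 582 were higher and 688 lower at that unadjusted p. So 0 calls in a list this short does not set it apart from other genes. Between the lines 6 were higher and 2 lower in SW620, beside 32.3% and 31.3% of all tested genes. DROSHA, which makes the first cut of the hairpin transcript, was among the former, with a log2 difference of 0.77 (SE 0.119, edgeR adjusted p = 4.45e-10). TUT7, which adds uridine to let-7 hairpins, was among the latter, with a difference of -0.52 (SE 0.141, edgeR adjusted p = 4.88e-04). DROSHA and TUT7 were chosen after their values were seen.

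Mature let-7 was not measured by these libraries, and rows named for let-7 hairpins had at most 5 counts. Of 20 precursor and host genes listed, 18 were in the table and 5 were tested. WDR82, the host of let-7g, fell with the knockdown by 0.39 on the log2 scale (SE 0.116, edgeR adjusted p = 0.0458). Control and knockdown libraries of unequal depth had 1884 and 1014 counts in SW480, and 1039 and 1907 in SW620. The call of WDR82 was lost under each of the 6 alternative settings, with adjusted p from 0.067 (DESeq2's size factors in edgeR) to 1.00 (edgeR without the cell line). HUWE1, the host of let-7f-2 and miR-98, changed by 0.08 (SE 0.0913, edgeR adjusted p = 0.939). MIRLET7BHG and MIRLET7DHG had 9 to 79 counts and did not pass the test in either comparison. MIR100HG, the host of let-7a-2, had 754 and 522 counts in SW480 and 4 and 9 counts in SW620. It passed the filter only through SW480, where it is high, so its log2 difference of -6.81 between SW620 and SW480 is a description. Its change with the knockdown was -0.00 (SE 0.182, edgeR adjusted p = 1.00).

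Other described let-7 targets gave no call for the knockdown, on a background of 1.66% of all tested genes. Of 28 listed, 26 were tested and 0 passed the test for the knockdown in either direction (edgeR), with a median log2 change of -0.06. At an unadjusted p under 0.05, 0 were higher and 6 lower (edgeR), beside 582 and 688 of all 14024 tested genes. The DESeq2 Wald test called 0. Between the lines 12 were higher and 8 lower in SW620, beside 32.3% and 31.3% of all tested genes. IGDCC3, a let-7 target of the early embryo, was among the higher ones with 7 and 7 counts in SW480 and 63 and 148 in SW620. It entered the test only through SW620, so its log2 difference of 3.67 is a description, and it was named after its values were seen. The counts of calls between the lines in this and the other lists include such genes.

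In the IGF axis and among mRNAs described as bound by IGF2BP proteins, 10 of 11 genes were tested. With the knockdown 0 were higher and 0 lower (edgeR, with 3 and 2 at an unadjusted p under 0.05, and 0 by the DESeq2 Wald test). At that unadjusted p 582 of all 14024 tested genes were higher and 688 lower. The median log2 change of the list was 0.03. In SW620 4 were higher and 4 lower, beside 32.3% and 31.3% of all tested genes. IGF2 itself had at most 4 counts in a library. CD44, an adhesion receptor whose mRNA is bound by IGF2BP proteins, had 10634 and 8880 counts in SW480 and 29 and 118 counts in SW620, a log2 difference of -7.40 (SE 0.142). CD44 was chosen after its values were seen.

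Of 13 other oncofetal genes 6 were tested, and 0 passed the test for the knockdown (edgeR), beside 1.66% of all tested genes. The count was also 0 at an unadjusted p under 0.05 (edgeR) and by the DESeq2 Wald test. In SW620 3 were higher and 2 lower, beside 32.3% and 31.3% of all tested genes. AFP was at 0 counts in each library. The higher ones, named after their values were seen, were PEG10, PLAG1 and TDGF1, with log2 differences of 4.80, 4.46 and 6.84. PLAG1, a transcription factor that acts downstream of HMGA2, had 8 and 3 counts in SW480 and 76 and 222 counts in SW620. PLAG1 and TDGF1 entered the test only through SW620, where they are high, and their differences are descriptions.

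All 8 genes described as regulated by HMGA proteins were tested. CDH1, which encodes E-cadherin, was the one that passed the test for the knockdown, beside 1.66% of all tested genes. At an unadjusted p under 0.05, 1 was higher and 2 were lower (edgeR), beside 582 and 688 of all 14024 tested genes. The DESeq2 Wald test called 0. The lower ones were the cyclin genes CCNA2 and CCNB2, with log2 changes of -0.34 and -0.42 (edgeR adjusted p = 0.163 and 0.0565). CDH1 was at 99.8 and 130 CPM in control and knockdown SW480 cells and at 102 and 145 CPM in SW620 cells, and rose by 0.45 on the log2 scale (SE 0.121, edgeR adjusted p = 0.021). This call was lost without the filter, with the filter of 50 counts, without the cell line and with the DESeq2 Wald test, with adjusted p of 0.0976, 0.103, 1.00 and 0.42. The median change of the list was -0.19, and the list includes IGF2BP2, which is also a member. CDH1 is also one of the epithelial markers, of which KRT8 and KRT18 fell with the knockdown by 0.34 and 0.34 on the log2 scale (edgeR adjusted p = 0.00406 and 0.00537).

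Finally, all tested genes were grouped by their 8-base let-7 sites. HMGA2 and DICER1 rose, while IGF2BP1 and TRIM71, with more 8-base sites in the 3′ UTR, did not pass. HMGA2 had 3 further 7-base sites, against 1 in IGF2BP1 and 2 in TRIM71. TRIM71 had 0, 1, 20 and 19 counts in the libraries and IGF2BP1 had 15 and 11 in SW480, so their changes were poorly measured there. Whether let-7 sites have a part in any of these changes was not tested. An annotated 3′ UTR was found for 12350 of the 14024 tested genes (88.1%), and 536 of these (4.34%) had at least 1 8-base site in the longest one. By this rule HMGA2 and DICER1 are counted among the genes without a site, and with any annotated 3′ UTR, which includes HMGA2, 591 genes had a site and their median log2 change with the knockdown was 0.01. The median log2 change with the knockdown was 0.00 in genes with a site and 0.01 in genes without one. For SW620 against SW480 the medians were 0.05 and -0.01. The 23 genes with 2 or more sites had medians of 0.02 with the knockdown and 0.31 between the lines. They include TRIM71 and IGDCC3, which entered the test only through SW620, where they are high, and SDR42E1, which entered only through SW480. The median of these genes between the lines is therefore a description. Genes with a site had longer 3′ UTRs (median 3196 bases against 1310), and length was not matched in these groups. The 7-base site was found in 11.3% of the genes, with a median log2 change of 0.02 with the knockdown.

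Genes with 3 or more 8-base sites in an annotated 3′ UTR included TRIM71 with 4, and IGF2BP1, IGDCC3, SMC1A and SDR42E1 with 3. With the knockdown 0 of these passed the edgeR test in either direction, also at an unadjusted p under 0.05, and 0 passed the DESeq2 Wald test. Over all tested genes 1.66% passed the edgeR test in either direction. In SW620, IGF2BP1, TRIM71, IGDCC3 and SMC1A were higher and SDR42E1 was lower, but TRIM71 and IGDCC3 entered the test only through SW620 and SDR42E1 only through SW480. IGDCC3, SMC1A and SDR42E1 were chosen after values were seen.

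**Figure D5:**
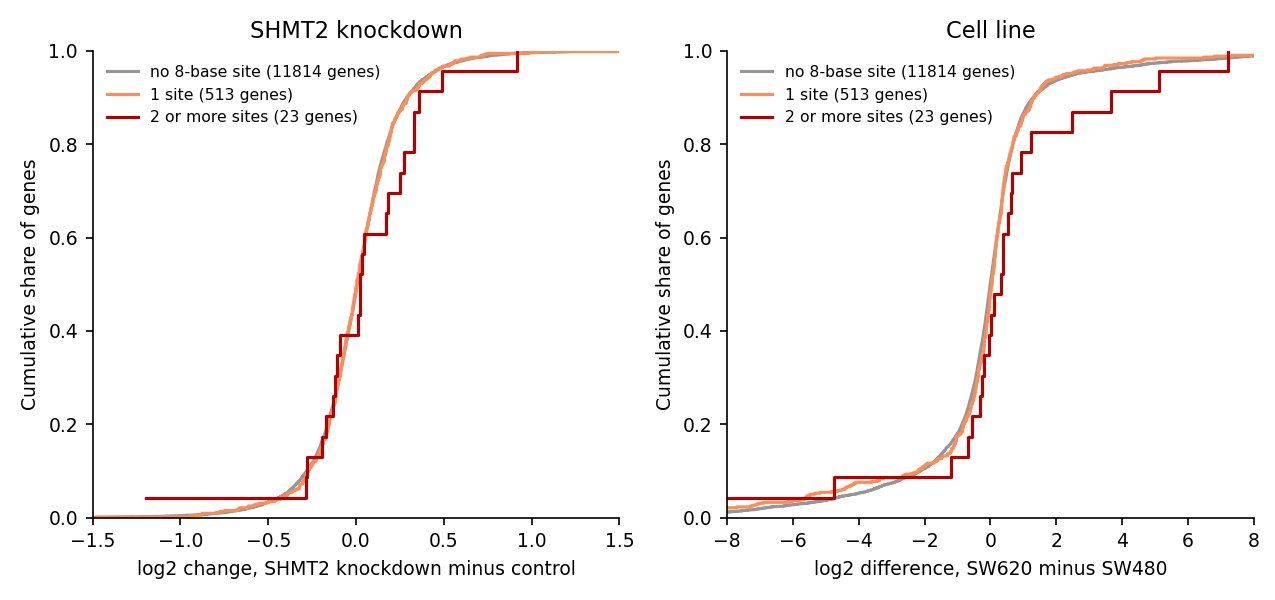
Cumulative share of tested genes (vertical axis) by log2 change with SHMT2 knockdown (left) and by log2 difference between SW620 and SW480 (right), for genes with 0, 1 and 2 or more 8-base sites in the longest 3′ UTR. The horizontal axes are cut at 1.5 and 8 in size. On the left the curves run close to one another, and on the right that of the 23 genes with 2 or more sites lies to the right of the others in its upper part. That group includes TRIM71 and IGDCC3, which entered the test only through SW620, where they are high, so the right panel is a description.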

How the data were processed

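Raw read counts by gene symbol, without normalization, were deposited by the authors in 1 table for 4 Illumina TruSeq RNA libraries. The submitters' processing notes name Bowtie 0.12.2 and hg18. How reads were counted, on which annotation and with or without strand is not given in the sources used here. In 28 rows the symbol had turned into a date, and these were kept. Counts were scaled by TMM and tested in R 4.3.3 with edgeR 4.0.16, using the two-sided quasi-likelihood test with terms for cell line and treatment, in all genes with 10 counts in 2 libraries, with Benjamini-Hochberg adjustment over 14024 genes and a threshold of 0.05. The model leaves 1 residual degree of freedom per gene, so the spread is shared across genes. The cell line pairs the libraries, and deviations from the condition means correlated across genes with r = 0.961 in SW480. Log2 values of a single line had a prior count of 2, and intervals are 95% counting intervals. The totals of 5530129 to 13774288 counts set the precision.

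Alternatives were no cell line term, other filters, DESeq2 1.42.0 (size factors and Wald test), thinning, single lines or conditions, a prior count of 0.5, and other lengths and sites. Positions, 3′ UTRs and site sequences came from GENCODE 29 (GRCh38), a build other than hg18, and microRNAs from RefSeq. Named genes were SHMT2, the 9 members, genes overlapping them, the 3 genes most like HMGA2, list genes that passed the knockdown test and let-7 host genes with 10 counts in 2 libraries. Other genes were named after their values were seen. The members and gene lists were chosen with earlier results of these data known. The statistics were tested on simulated data.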

Additional observations from a re-analysis of the deposited data

Results flagged for a closer look

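For 4 of the tested members the knockdown and control libraries differed in opposite directions in the lines, and the difference between the lines was not tested, since each line had 1 library per condition. The log2 change in SW620 minus that in SW480 was 0.73 for HMGA1, 0.39 for IGF2BP2, 1.10 for ARID3B and -1.98 for TRIM71. For HMGA1 the difference between SW620 and SW480 had opposite signs in control and knockdown libraries, and the same 0.73 separated them. The 95% counting interval of these values ran from 0.68 to 0.78 for HMGA1, from 0.21 to 0.56 for IGF2BP2, from 0.60 to 1.60 for ARID3B and from -4.73 to 0.77 for TRIM71, which had 0 and 1 counts in SW480. Over all tested genes 51.8% had the same direction in both lines.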

How the results depend on the processing

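The count of members higher in knockdown cells was 2 and depended on the processing. The adjusted p of HMGA2 ranged from 7.41e-13 to 1.00 over these settings of edgeR and DESeq2. Without the replicate block, that is without the cell line that pairs the libraries, it was 0, and over all genes 0 were higher and 0 lower (edgeR, with 1 and 17 at an unadjusted p under 0.05). It was 1 without the filter on low counts, with a filter of 50 counts, with the DESeq2 Wald test and with thinned libraries, and 2 with DESeq2's size factors. HMGA2 passed in each of these settings except without the block, and DICER1 passed with the size factors alone. Genes higher in knockdown cells numbered 69, but 15 with the filter of 50 counts, 5 with the Wald test, which adjusted p for 4508 genes only, and 32 with thinning. Lower genes numbered 164, but 54, 21 and 80. Members higher in SW620 numbered 4, but 2 with the Wald test, where 2680 genes were higher and 2826 lower in place of 4532 and 4394. Without the treatment term HMGA1 and DICER1 did not pass between the lines (edgeR adjusted p = 0.0723 and 0.0939), and no other call of a member between the lines was lost. The sign reversed for ARID3B with the knockdown, from -0.04 to 0.0845 without the block, and for HMGA1 between the lines, from -0.34 to 0.0289 in the knockdown libraries alone. With 1 line alone the sign of the knockdown change also reversed for 4 members. These were HMGA1 (0.13), IGF2BP2 (0.16) and ARID3B (0.44) in SW620, and TRIM71 (0.73) in SW480. Of 60 alternative values of the knockdown change of members 55 kept their sign, as did 61 of 62 between the lines. The cause of these changes was not tested. With 1 library per line and condition, no line could be tested alone, and TRIM71 and LIN28B were limited by depth.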
